A study of Danio rerio with 18 samples.

Results

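Ventricles of adult zebrafish taken 7 days after cryoinjury, a freezing injury to the heart wall, were set against uninjured ventricles that express a red fluorescent protein (RFP) in cardiomyocytes. The comparison takes 6 of the 15 RNA libraries with counts, 3 in each group, and was set by the labels of the samples and not by any measured value. The injured fish, called 7 dpci below, carried cmcl2:Gal4-ERT2 alone and are labelled as untreated. The other group, called RFP DMSO, carried cmcl2:Gal4-ERT2 with UAS:RFP, was not injured, and received 4 overnight pulses of 2.5 uM 4-hydroxytamoxifen (4-OHT) together with the vehicle DMSO at 0.05%, over 16 days. Both groups share the driver, a Gal4 that 4-OHT activates, placed under a cardiomyocyte promoter. The counts of the groups come from separate deposited tables, so injury, table, UAS:RFP, 4-OHT and DMSO all differ between them and cannot be told apart. The labels list 18 samples, and the 3 uninjured ones of the driver line were not analysed here. Where the 3 further groups of 3 libraries each are named, they are uninjured fish with 4-OHT over 16 days: UAS:RFP with 0.5 uM rapamycin, which blocks the TOR kinase (RFP rapamycin), and UAS:GFP-HRAS, an oncogene, with 0.05% DMSO (GFP-HRAS DMSO) or with rapamycin (GFP-HRAS rapamycin). The ages of the fish, and whether a library holds 1 animal or several, are not stated in the labels, so p-values measure the spread between these libraries.

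The adult zebrafish heart regrows muscle after cryoinjury. Dead tissue is cleared by leukocytes, epicardial cells and fibroblasts lay down a transient matrix rich in fibronectin and collagen, and cardiomyocytes beside the wound dedifferentiate in part and divide. At about a week after injury these processes are known to overlap in the ventricle.

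Library totals ran from 18105533 to 20003711 counts in 7 dpci and from 17028148 to 18945526 in RFP DMSO, and 20781 to 20966 genes had counts in 7 dpci libraries, against 19903 to 20015 in RFP DMSO libraries. The first principal component of all 15 libraries, over the 1000 most variable genes, held 64.7% of the variance. It placed 7 dpci at 23.2 to 28.5 and RFP DMSO at -60.6 to -48.7. The uninjured GFP-HRAS DMSO libraries lay farther out on the side of 7 dpci, at 51.7 to 71.2, and GFP-HRAS rapamycin at -11.9 to 44.5. On the second component, with 11.6% of the variance, 7 dpci stood at 36.8 to 40.4 and every other library at 5.68 or below. Cardiomyocyte markers summed to 37161 to 38649.5 CPM in 7 dpci and 29766 to 31482 CPM in RFP DMSO, so both groups held cardiomyocyte RNA. Of the 7 such markers tested, 3 were called higher in 7 dpci and 2 lower. The atrial markers myh6 (ENSDARG00000090637) and myl4 overlapped between the groups. They summed to 104 to 244 CPM in 7 dpci and 82 to 369 CPM in RFP DMSO. A ventricular origin was not tested by these sums. The neutrophil marker lyz, the lymphocyte marker lck and the liver marker apoa1a were at 0 in all 6 libraries. Mitochondrially encoded genes took 18.7% ± 2.37 of counts in 7 dpci and 16.04% ± 4.95 in RFP DMSO (SD, n = 3 each, two-sided exact permutation p = 0.5; the smallest p that 3 against 3 allows is 0.1). RFP DMSO replicate 1 stood at 21.8% and the other two RFP DMSO libraries at 13.2% and 13.1%.

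A large part of the measured transcriptome differed. Of 16421 genes that passed the expression filter, 5984 (36.4%) were called at a Benjamini-Hochberg adjusted p under 0.05 in edgeR's quasi-likelihood test: 3079 (18.8%) were higher in 7 dpci and 2905 (17.7%) lower. With a change of at least 2-fold as well, 3905 genes (23.8%) were called, 2440 (14.9%) higher and 1465 (8.92%) lower, so large changes were more often increases. Scaling by library totals in place of TMM factors gave 5644 calls, 3517 higher and 2127 lower, and moved the median log2 fold change of all genes to 0.14, against 0.02 with TMM. Fold changes below are relative to the TMM scaling and are log2 values of 7 dpci over RFP DMSO with their standard error. In 4860 genes (29.6%) every 7 dpci library was above every RFP DMSO library, and in 4610 (28.1%) every one was below. The gene lists below are read against the shares of all genes called, 18.8% higher and 17.7% lower. In directions in which a list had at most 1 gene called, the alternatives called 0 to 3. Levels are CPM, counts scaled by the effective library size, and are compared between libraries, never between genes. Symbols are printed as the name table gives them, many in human style, with the Ensembl identifier where paralogues share one.

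**Figure D1:**
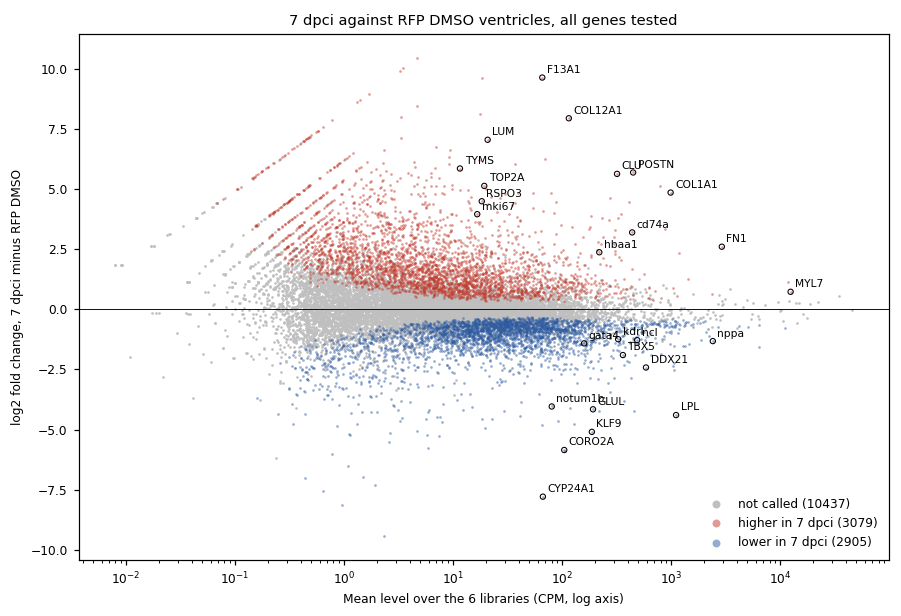
Each point is 1 of the 16421 genes tested; the x axis is the mean level over the 6 libraries in CPM on a log axis and the y axis the log2 fold change of 7 dpci over RFP DMSO. The 3079 genes called higher are red, the 2905 called lower are blue, the rest grey. Circles mark genes named in the text, F13A1 and COL12A1 among the highest and CYP24A1 among the lowest, and slanted rows of points at low levels are genes with few counts.

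The largest increases included genes of the matrix, of clotting and of leukocytes. They and the largest decreases below were picked from called genes whose groups did not overlap, so those traits were fixed by the choice. F13A1 (ENSDARG00000045453), a gene for the A chain of coagulation factor XIII, which crosslinks fibrin, had 166, 153 and 75.7 CPM in 7 dpci, against 0.0653, 0.0611 and 0.331 CPM in RFP DMSO. All 3 injured libraries lay far above all 3 uninjured ones (log2 fold change 9.63 ± 1.16, edgeR adjusted p = 0.00020). Its paralogue F13A1 (ENSDARG00000094832) had no count in RFP DMSO and averaged 6.54 CPM in 7 dpci, at least 108-fold higher against a floor of 3 counts over the group. CILP2, a cartilage matrix protein, averaged 35.4 ± 9.09 CPM in 7 dpci and 0.116 ± 0.0909 CPM in RFP DMSO (SD, n = 3 each, log2 fold change 8.13 ± 1.07, edgeR adjusted p = 0.00028). spp1, the secreted phosphoprotein osteopontin, had a single count over the RFP DMSO libraries, and 3.12, 4.04 and 20.95 CPM in 7 dpci. Its ratio of 7 dpci to RFP DMSO was 451, with a 95% exact counting interval of 80.7 to 17866. Of its 523 counts in 7 dpci, 383 were in replicate 3. The MHC class II gene mhc2dab had 2 counts over RFP DMSO and a ratio of 931, with a 95% exact counting interval of 258 to 7696. It averaged 36.8 ± 15.9 CPM in 7 dpci but 3.35 ± 5.67 CPM in RFP rapamycin (SD, n = 3 each). Against that group its log2 fold change was 3.41 ± 1.14 (edgeR adjusted p = 0.034).

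The largest decreases were more mixed in function. CYP24A1 (ENSDARG00000103277), the enzyme that inactivates vitamin D, had 0.384, 0.323 and 1.09 CPM in 7 dpci, against 79.8, 247 and 71.5 CPM in RFP DMSO, without overlap (log2 fold change -7.79 ± 1.296, edgeR adjusted p = 0.00086). CORO2A, an actin-binding coronin, had 4.94, 5.01 and 0.711 CPM in 7 dpci, against 144, 169 and 304 CPM in RFP DMSO. Its log2 fold change was -5.85 ± 1.33 (edgeR adjusted p = 0.0049), and the uninjured libraries were all higher. TWF2 ENSDARG00000009727, an actin-monomer binding twinfilin, averaged 4.46 ± 3.13 CPM in 7 dpci and 126 ± 19.4 CPM in RFP DMSO (SD, n = 3 each, log2 fold change -4.82 ± 0.64, edgeR adjusted p = 0.00030). SLC45A1, a sugar transporter, and MYO3B, an unconventional myosin, fell by 5.51 and 5.25 on the log2 scale. In uninjured GFP-HRAS DMSO, CYP24A1 averaged 2.91 ± 2.16 CPM, CORO2A 23.3 ± 34.5, SLC45A1 0.216 ± 0.131 and MYO3B 0.612 ± 0.500 (SD, n = 3 each). None of these was called against that group (edgeR adjusted p of 0.10 to 0.61). TWF2 ENSDARG00000009727 was called lower there as well (-2.26 ± 0.58, edgeR adjusted p = 0.012).

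Collagen genes were raised as a family in 7 dpci. Of 20 collagen genes tested, 18 rose and 1 fell, with a median log2 fold change of 3.73 where the median over all genes tested was 0.02, and together the list took 0.721% ± 0.0555 of counts in 7 dpci and 0.0496% ± 0.00897 in RFP DMSO. COL1A1 (ENSDARG00000035809), a fibrillar collagen chain of scars and bone, had 2029, 1956 and 1757 CPM in 7 dpci, against 77.8, 43.3 and 77.9 CPM in RFP DMSO. The lowest injured library stood far above the highest uninjured one (log2 fold change 4.85 ± 0.51, edgeR adjusted p = 0.00011). COL1A2, its partner chain, averaged 1530.4 ± 99.5 CPM in 7 dpci and 43.6 ± 17.7 CPM in RFP DMSO (SD, n = 3 each, log2 fold change 5.13 ± 0.65, edgeR adjusted p = 0.00024). COL12A1 (ENSDARG00000019601), a fibril-associated collagen, had 216, 209 and 264 CPM in 7 dpci, against 1.18, 0.917 and 0.717 CPM in RFP DMSO, the largest change of the family (log2 fold change 7.94 ± 0.86, edgeR adjusted p = 0.00013). A second COL12A1 gene, ENSDARG00000078322, rose by 3.94 ± 0.56 (edgeR adjusted p = 0.00040), and col11a1b, a minor fibrillar collagen, by 6.23 ± 0.96 (edgeR adjusted p = 0.00057).

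Glycoproteins of the provisional matrix moved the same way. Of 39 matrix glycoproteins and crosslinkers tested, 26 rose and the rest did not pass the test (median log2 fold change 2.504). FN1 (ENSDARG00000006526), a fibronectin, had 5375, 5448 and 4221 CPM in 7 dpci, against 1024, 1033 and 424 CPM in RFP DMSO. RFP DMSO replicate 3 was the lowest of the 6 and 7 dpci replicate 3 the lowest of the injured libraries, and the groups did not overlap (log2 fold change 2.600 ± 0.35, edgeR adjusted p = 0.00031). The other fibronectin gene, ENSDARG00000019815, averaged 72.2 ± 13.6 CPM in 7 dpci and 1.11 ± 0.354 CPM in RFP DMSO (SD, n = 3 each, log2 fold change 6.02 ± 0.82, edgeR adjusted p = 0.00032). POSTN (ENSDARG00000104267), periostin, which activated fibroblasts secrete, had 777, 775 and 1088 CPM in 7 dpci, against 7.31, 40.3 and 3.75 CPM in RFP DMSO. Its log2 fold change was 5.68 ± 1.002 (edgeR adjusted p = 0.0012), and that of the second POSTN gene, ENSDARG00000043806, 3.48 ± 0.51 (edgeR adjusted p = 0.00048). LUM, the proteoglycan lumican, averaged 41.2 ± 13.2 CPM in 7 dpci and 0.316 ± 0.294 CPM in RFP DMSO (SD, n = 3 each, log2 fold change 7.04 ± 0.90, edgeR adjusted p = 0.00026).

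The machinery that folds and remodels collagen was also higher. Of 20 genes for collagen folding and secretion, 15 rose and the rest did not pass the test (median 1.84). Both genes named SERPINH1, the collagen chaperone HSP47, rose: ENSDARG00000075954 averaged 106 ± 3.24 CPM in 7 dpci and 3.75 ± 3.03 CPM in RFP DMSO (SD, n = 3 each, log2 fold change 4.82 ± 0.60, edgeR adjusted p = 0.00022) and ENSDARG00000019949 changed by 3.95 ± 0.44 (edgeR adjusted p = 0.00015). Of 24 matrix proteases and inhibitors, 8 rose and the rest did not pass the test. The count was 13 when only the 6 libraries were fitted and 14 with a replicate block. MMP2, a gelatinase, had 469, 379.8 and 403 CPM in 7 dpci, against 63.97, 43.9 and 50.3 CPM in RFP DMSO, and the groups were apart (log2 fold change 2.98 ± 0.36, edgeR adjusted p = 0.00020). plaua, a urokinase plasminogen activator, rose by 5.51 ± 0.74 (edgeR adjusted p = 0.00032).

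Genes listed for the cells that make such a matrix were mostly higher. Of 22 fibroblast genes, 17 rose and 1 fell (median 2.51), and of 17 epicardial genes, 13 rose and 1 fell (median 1.67). The fibroblast and matrix glycoprotein lists share members, POSTN ENSDARG00000104267 and LUM among them, so their counts are not separate evidence. wt1b (ENSDARG00000007990), a transcription factor of activated epicardium, had 32.2, 38.4 and 34.6 CPM in 7 dpci, against 9.86, 4.71 and 2.76 CPM in RFP DMSO. The injured libraries were close together and all above the uninjured ones, of which replicate 1 was the highest (log2 fold change 2.61 ± 0.48, edgeR adjusted p = 0.0015). TCF21 and TBX18, transcription factors of epicardium and its descendants, rose by 1.86 ± 0.30 (edgeR adjusted p = 0.00074) and 1.68 ± 0.35 (edgeR adjusted p = 0.0032). MDK ENSDARG00000036036, the growth factor midkine, averaged 787 ± 10.7 CPM in 7 dpci and 35.4 ± 21.2 CPM in RFP DMSO (SD, n = 3 each, log2 fold change 4.47 ± 0.64, edgeR adjusted p = 0.00040). ALDH1A2, the enzyme that makes retinoic acid, had 4.46, 8.41 and 5.69 CPM in 7 dpci, against 2.02, 1.28 and 1.32 CPM in RFP DMSO (log2 fold change 2.001 ± 0.37, edgeR adjusted p = 0.0016), but was not called against RFP rapamycin (0.67 ± 0.35, adjusted p = 0.16). podxl, a surface sialomucin on the same marker list, fell by 0.64 on the log2 scale, with 837, 813 and 897 CPM in 7 dpci, against 1158, 1437 and 1364 CPM in RFP DMSO (edgeR adjusted p = 0.0041). The 5 epicardial markers, podxl among them, summed to 948 to 1002 CPM in 7 dpci and 1201 to 1463 CPM in RFP DMSO, while 4 of the 5 rose. In these bulk libraries a larger share of such cells and more RNA per cell cannot be told apart, and the same holds for each cell type below.

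**Figure D2:**
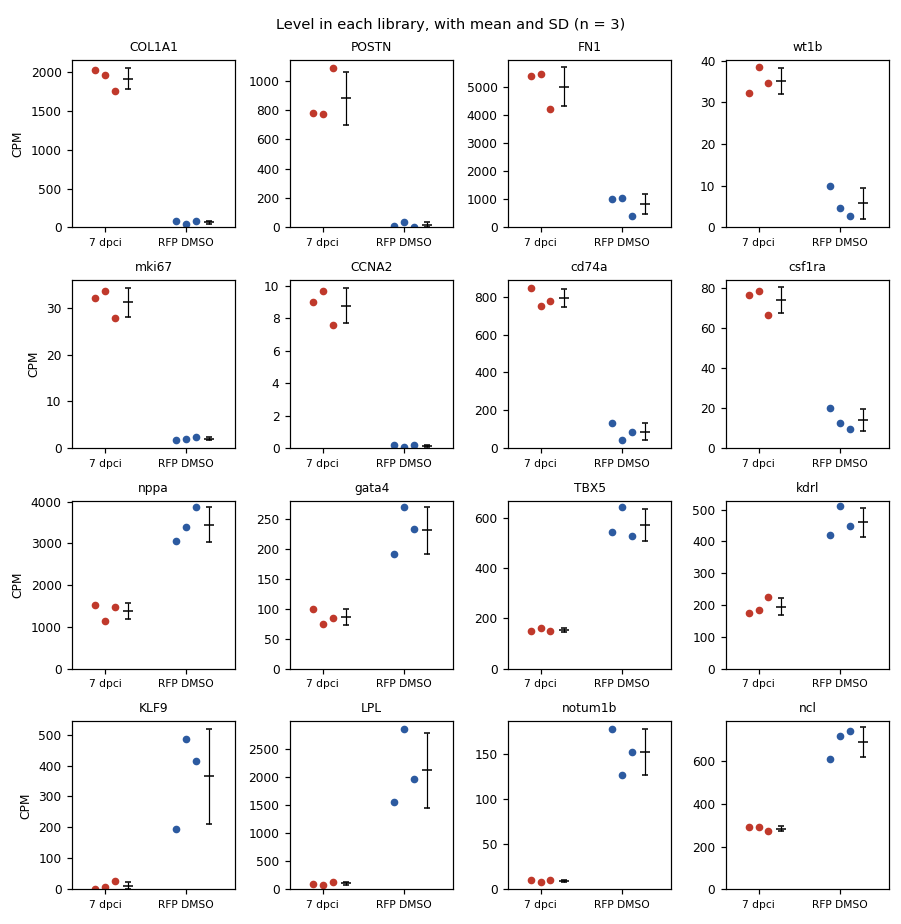
Level in CPM of 16 genes named in the text, 1 panel each; red points are the 3 libraries of 7 dpci, blue points the 3 of RFP DMSO, and the bars give the mean and SD of each group. The y axes start at 0, and in every panel the groups do not overlap.

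Genes of the dividing cell were almost uniformly higher. Of 28 mitosis genes, 27 rose and the rest did not pass the test, with a median log2 fold change of 3.38, and of 27 genes of DNA synthesis 20 rose and the rest did not pass the test (median 1.68). mki67 (ENSDARG00000091150), a protein of cycling cells, had 32.3, 33.8 and 27.8 CPM in 7 dpci, against 1.76, 2.02 and 2.26 CPM in RFP DMSO. The groups were far apart and each was narrow (log2 fold change 3.95 ± 0.43, edgeR adjusted p = 0.00013). CCNA2 (ENSDARG00000011094), the cyclin of S phase and G2, had 9.01, 9.7 and 7.604 CPM in 7 dpci, against 0.196, 0.0611 and 0.165 CPM in RFP DMSO (log2 fold change 5.897 ± 0.52, edgeR adjusted p = 5.1e-05). TOP2A, the topoisomerase that untangles sister chromatids, averaged 37.6 ± 1.5 CPM in 7 dpci and 1.06 ± 0.614 CPM in RFP DMSO (SD, n = 3 each, log2 fold change 5.13 ± 0.63, edgeR adjusted p = 0.00022). Among enzymes that supply or copy DNA, TYMS, which makes thymidylate, rose by 5.85 ± 0.61 (edgeR adjusted p = 0.00011), and MCM6 ENSDARG00000057683, part of the replicative helicase, by 4.38 ± 0.60 (edgeR adjusted p = 0.00034).

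PCNA, the sliding clamp that also serves DNA repair, had 115, 114 and 95.7 CPM in 7 dpci, against 42.6, 50.9 and 45.1 CPM in RFP DMSO, with a log2 fold change of 1.23 ± 0.23 (edgeR adjusted p = 0.0016), and RPA1, which coats single-stranded DNA, averaged 55.2 ± 3.102 CPM in 7 dpci and 59.8 ± 6.49 CPM in RFP DMSO (SD, n = 3 each, log2 fold change -0.11, edgeR adjusted p = 0.58). Of 17 cyclins, inhibitors and E2F genes of G1, 9 rose and 1 fell. Both CCND2 genes, D-type cyclins, rose: ENSDARG00000070408 by 2.75 ± 0.58 (edgeR adjusted p = 0.0031) and ENSDARG00000051748 by 1.16 ± 0.19 (edgeR adjusted p = 0.00086). The cell cycle inhibitor cdkn1a, a p53 target, rose as well, with 19.03, 16.1 and 17.5 CPM in 7 dpci, against 4.896, 5.75 and 5.02 CPM in RFP DMSO (log2 fold change 1.75 ± 0.22, edgeR adjusted p = 0.00023). Which cells of the ventricle held these transcripts cannot be read from bulk libraries. Macrophage, fibroblast and cell cycle genes were high in the same 3 libraries, and the part of each cell type in the cell cycle counts was not tested.

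Genes of macrophages and of leukocytes in general were mostly higher. Of 34 genes of macrophages or leukocytes in general, 23 rose and the rest did not pass the test (median 2.095), and the list took 0.201% ± 0.0178 of counts in 7 dpci and 0.0454% ± 0.0165 in RFP DMSO. csf1ra (ENSDARG00000102986), the receptor for macrophage colony-stimulating factor, had 76.7, 78.8 and 66.8 CPM in 7 dpci, against 20.04, 12.6 and 9.598 CPM in RFP DMSO. RFP DMSO replicate 1 was the highest of its group and still below every injured library (log2 fold change 2.397 ± 0.43, edgeR adjusted p = 0.0014). cd74a (ENSDARG00000009087), the MHC class II invariant chain, had 847, 751 and 779 CPM in 7 dpci, against 133, 42.9 and 84.2 CPM in RFP DMSO (log2 fold change 3.19 ± 0.44, edgeR adjusted p = 0.00036). The class I light chain b2m did not pass the test, at 369 ± 31.4 CPM in 7 dpci and 476 ± 56.2 CPM in RFP DMSO (SD, n = 3 each, log2 fold change -0.37, edgeR adjusted p = 0.083). MRC1, a mannose receptor that macrophages and some endothelia carry, averaged 6.49 ± 0.759 CPM in 7 dpci and 0.504 ± 0.08003 CPM in RFP DMSO (SD, n = 3 each, log2 fold change 3.67 ± 0.53, edgeR adjusted p = 0.00041). The macrophage marker MPEG1 did not follow: its most abundant copy, ENSDARG00000043093, averaged 10.2 ± 1.06 CPM in 7 dpci and 32.8 ± 39.2 CPM in RFP DMSO (SD, n = 3 each, log2 fold change -1.68, edgeR adjusted p = 0.098). Without RFP DMSO replicate 2 that gene was called lower (-2.17, edgeR adjusted p = 0.039).

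Of 14 neutrophil genes, 1 rose and 2 fell, or 7.14% and 14.3%, against 18.8% and 17.7% of all genes. Defining neutrophil markers, of which 1 was tested and called lower, summed to 1.58 to 3.23 CPM in 7 dpci and 6.79 to 18 CPM in RFP DMSO. For neutrophils the higher count was 0 without 7 dpci replicate 2, 7 dpci replicate 3 or RFP DMSO replicate 3, 2 when only the 6 libraries were fitted or with DESeq2 or with RFP rapamycin as the control or with library-total scaling or with a replicate block and 3 without RFP DMSO replicate 1, and the lower count 1 without RFP DMSO replicate 3 and 4 when only the 6 libraries were fitted or with RFP rapamycin as the control. The neutrophil median was 0.14, but 0.89 without RFP DMSO replicate 1 and -0.12 without RFP DMSO replicate 3. illr4, a lectin-like receptor, averaged 0.285 ± 0.229 CPM in 7 dpci and 6.55 ± 7.85 CPM in RFP DMSO (SD, n = 3 each, log2 fold change -4.51 ± 0.99, edgeR adjusted p = 0.0040). Lymphocyte genes, 18 in number, gave 5 increases and 3 decreases, or 27.8% and 16.7%, with a median log2 fold change of 1.79. The higher count was 2 without 7 dpci replicate 2 or RFP DMSO replicate 3 and 3 without RFP DMSO replicate 2. Defining lymphocyte markers were low, and summed to 3.4, 13.4 and 9.63 CPM in 7 dpci, against 1.83, 0.978 and 0.883 CPM in RFP DMSO. Of these markers 2 were called higher and 0 lower. The chemokine receptor CCR9 ENSDARG00000055186 rose by 4.05 ± 0.63 (edgeR adjusted p = 0.00062), while GATA3, a T-cell transcription factor also used elsewhere, fell by 1.27 on the log2 scale, with 15.1, 17.2 and 13.2 CPM in 7 dpci, against 34.5, 36.6 and 38.8 CPM in RFP DMSO (edgeR adjusted p = 0.0023). The T-cell receptor chain cd247 averaged 0.628 ± 0.157 CPM in 7 dpci and 3.898 ± 1.74 CPM in RFP DMSO (SD, n = 3 each, log2 fold change -2.63 ± 0.54, edgeR adjusted p = 0.0028).

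Of 41 chemokine and cytokine genes, 16 rose and 1 fell. cxcl8a, a chemokine that attracts neutrophils, had 1.58, 3.07 and 6.29 CPM in 7 dpci, against 0.326, 0.122 and 0.221 CPM in RFP DMSO, all low levels and without overlap (log2 fold change 3.997 ± 0.63, edgeR adjusted p = 0.00066). tnfb, a tumour necrosis factor, rose by 3.41 ± 0.51 (edgeR adjusted p = 0.00053). il11a, a cytokine of regeneration in several zebrafish organs, did not pass the test and had 1.87, 3.02 and 8.92 CPM in 7 dpci, against 3.98, 15.8 and 0.221 CPM in RFP DMSO, with overlap (log2 fold change -0.54, edgeR adjusted p = 0.79). Of 16 complement and coagulation genes 6 rose and the rest did not pass the test. c4b, a complement C4 gene, had 506, 556 and 449 CPM in 7 dpci, against 58.4, 28 and 27.5 CPM in RFP DMSO (log2 fold change 3.73 ± 0.43, edgeR adjusted p = 0.00017).

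Of 33 interferon response genes, 7 rose and 4 fell, near the background shares of 18.8% and 17.7%. Among interferon genes the higher count was 3 without RFP DMSO replicate 3 and 4 without 7 dpci replicate 3 or RFP DMSO replicate 2, and the lower count 1 without 7 dpci replicate 1 or RFP DMSO replicate 2, 2 with library-total scaling or without 7 dpci replicate 2, 7 dpci replicate 3 or RFP DMSO replicate 3 and 7 when only the 6 libraries were fitted. gbp1, a guanylate-binding protein, rose by 1.79 ± 0.28 (edgeR adjusted p = 0.00068).

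Of 32 sarcomere genes of the cardiomyocyte, 9 rose and 4 fell, or 28.1% and 12.5%, against 18.8% and 17.7% of all genes, and the list took 7.71% ± 0.379 of counts in 7 dpci and 6.15% ± 0.3901 in RFP DMSO. Its median log2 fold change was 0.31 against RFP DMSO and -0.02 against RFP rapamycin. For the sarcomere the higher count was 4 without RFP DMSO replicate 2 and 5 with RFP rapamycin as the control or without RFP DMSO replicate 3, and the lower count 2 with RFP rapamycin as the control or without 7 dpci replicate 2, 7 dpci replicate 3 or RFP DMSO replicate 3. MYH6 (ENSDARG00000079564), a cardiac myosin heavy chain gene other than the atrial marker myh6, had 2076, 1828 and 2012 CPM in 7 dpci, against 487, 273 and 419 CPM in RFP DMSO, without overlap (log2 fold change 2.33 ± 0.34, edgeR adjusted p = 0.00047). CSRP3, the muscle LIM protein of the Z disc, rose by 2.301 ± 0.39 (edgeR adjusted p = 0.00089). The actin gene actc1c had the largest decrease of the list, with 155 ± 23.6 CPM in 7 dpci and 510 ± 14.8 CPM in RFP DMSO (SD, n = 3 each). Its log2 fold change was -1.72 ± 0.42 (edgeR adjusted p = 0.0075), but it was not called against RFP rapamycin (-0.88 ± 0.42, edgeR adjusted p = 0.12). The cardiomyocyte marker TNNT2 ENSDARG00000020610 changed by -0.67 ± 0.20 (edgeR adjusted p = 0.021). MYL7, the regulatory light chain of cardiomyocytes, averaged 15566 ± 1001 CPM in 7 dpci and 9404 ± 288 CPM in RFP DMSO (SD, n = 3 each). Its log2 fold change of 0.73 was called in all 15 libraries (edgeR adjusted p = 0.043), but not without any 1 of the 6 libraries (edgeR adjusted p of 0.079 to 0.12), without the expression filter (0.056) or against RFP rapamycin (0.23). The light chain cmlc1 averaged 9758 ± 507 CPM in 7 dpci and 10178 ± 1133 CPM in RFP DMSO and did not pass the test (SD, n = 3 each, log2 fold change -0.06, edgeR adjusted p = 0.82).

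Genes of the stressed or fetal cardiomyocyte did not move as a block. Of 29 genes of the border zone and fetal program, 14 rose and 5 fell. The median was 1.04 against RFP DMSO and 0.24 against RFP rapamycin. Those that rose include MDK, TAGLN ENSDARG00000045408 (an actin-bundling protein of smooth muscle, 4.85 ± 0.94, edgeR adjusted p = 0.0020) and HBEGF (a ligand of epidermal growth factor receptors, 2.92 ± 0.46, edgeR adjusted p = 0.00069). MDK is also on the fibroblast list and TAGLN on the smooth muscle list. The count of higher genes was 9 without RFP DMSO replicate 2, and that of lower genes 3 without 7 dpci replicate 2, 7 dpci replicate 3 or RFP DMSO replicate 3. nppa (ENSDARG00000052960), the natriuretic peptide used as a marker of stressed ventricular muscle, was lower in the injured ventricles, with 1513, 1146 and 1479 CPM in 7 dpci, against 3059, 3403 and 3884 CPM in RFP DMSO. The groups did not overlap (log2 fold change -1.32 ± 0.30, edgeR adjusted p = 0.0051), though nppa was not called against RFP rapamycin (-0.69 ± 0.30, adjusted p = 0.088). nppb, its partner peptide, averaged 99.5 ± 15.2 CPM in 7 dpci and 228 ± 139 CPM in RFP DMSO and did not pass the test (SD, n = 3 each, log2 fold change -1.19, edgeR adjusted p = 0.15). NRG1, a mitogen for cardiomyocytes, averaged 0.572 ± 0.0315 CPM in 7 dpci and 0.717 ± 0.246 CPM in RFP DMSO and did not pass the test (SD, n = 3 each, log2 fold change -0.31, edgeR adjusted p = 0.65).

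Of 28 cardiac transcription factors, 8 fell (28.6%, against 17.7% of all genes) and the rest did not pass the test. Under other settings the higher count was 1 with library-total scaling or without the expression filter or without RFP DMSO replicate 1 and 2 when only the 6 libraries were fitted or with a replicate block. gata4 (ENSDARG00000098952), a factor of heart development that is also used in regenerating muscle, had 101, 74.7 and 85.1 CPM in 7 dpci, against 192, 270.2 and 233 CPM in RFP DMSO. Every injured library was lower (log2 fold change -1.42 ± 0.24, edgeR adjusted p = 0.00096). TBX5 (ENSDARG00000024894), a chamber T-box factor, had 148, 162 and 147 CPM in 7 dpci, against 541, 641 and 528 CPM in RFP DMSO (log2 fold change -1.903 ± 0.31, edgeR adjusted p = 0.00074). FOXO1 ENSDARG00000099555, a forkhead factor that insulin signalling holds out of the nucleus, averaged 34.8 ± 8.74 CPM in 7 dpci and 223 ± 79.96 CPM in RFP DMSO (SD, n = 3 each, log2 fold change -2.68 ± 0.49, edgeR adjusted p = 0.0015). Of 18 calcium handling and channel genes, 4 rose and 6 fell. HCN4 ENSDARG00000061685, a pacemaker channel, had 9.205, 7.44 and 12.04 CPM in 7 dpci, against 43.4, 99.9 and 39.8 CPM in RFP DMSO (log2 fold change -2.67 ± 0.64, edgeR adjusted p = 0.0064), while the calcium pump atp2a2a averaged 5106 ± 354 CPM in 7 dpci and 5915 ± 1014 CPM in RFP DMSO (SD, n = 3 each, log2 fold change -0.21, edgeR adjusted p = 0.33).

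In energy metabolism, 0 to 23.5% of the members of a list were called higher, against 18.8% of all genes. None of the 21 TCA cycle genes and none of the 13 mitochondrially encoded genes was called in either direction, in edgeR, with medians of 0.15 and 0.26. At an unadjusted p under 0.05 there were 3 TCA cycle and 0 mitochondrially encoded genes, and DESeq2 called none of either list. TCA cycle genes called higher numbered 2 with library-total scaling and 3 when only the 6 libraries were fitted or with a replicate block, and those called lower 2 when only the 6 libraries were fitted or with RFP rapamycin as the control or with a replicate block. Without RFP DMSO replicate 1, 1 mitochondrially encoded gene was called higher. Of 51 nuclear genes of oxidative phosphorylation, 12 rose and 1 fell (median 0.41). The higher count was 21 without RFP DMSO replicate 1 and 22 with library-total scaling. COX5A, a subunit of cytochrome oxidase, rose by 1.297 ± 0.22 (edgeR adjusted p = 0.00088), and the ATP synthase subunit ATP5F1B averaged 2166 ± 141 CPM in 7 dpci and 2197 ± 136 CPM in RFP DMSO (SD, n = 3 each, log2 fold change -0.02, edgeR adjusted p = 0.93). Fatty acid oxidation genes numbered 3 higher and 4 lower of 32, or 9.38% and 12.5%, under the shares of 18.8% and 17.7% of all genes. For fatty acid oxidation the higher count was 0 with RFP rapamycin as the control or without 7 dpci replicate 2, 7 dpci replicate 3, RFP DMSO replicate 2 or RFP DMSO replicate 3, 1 without 7 dpci replicate 1, 6 when only the 6 libraries were fitted, 8 without RFP DMSO replicate 1 and 10 with a replicate block, and the lower count 2 without 7 dpci replicate 1 or 7 dpci replicate 2. LPL (ENSDARG00000087697), lipoprotein lipase, which releases fatty acids from blood lipids, had 90.4, 80.2 and 132 CPM in 7 dpci, against 1546, 2853 and 1967 CPM in RFP DMSO. It was the largest change of the list (log2 fold change -4.396 ± 0.95, edgeR adjusted p = 0.0037). In uninjured GFP-HRAS DMSO LPL averaged 99.6 ± 131 CPM, and it was not called against that group (0.02 ± 0.83, edgeR adjusted p = 0.99). Of 39 glycolysis genes, 9 rose and 1 fell. The count of glycolysis genes called higher was 4 without 7 dpci replicate 2 or RFP DMSO replicate 2 and 5 with RFP rapamycin as the control. HK1, a hexokinase, rose by 1.35 ± 0.30 (edgeR adjusted p = 0.0041), and GAPDH averaged 10046 ± 752 CPM in 7 dpci and 10194 ± 1931 CPM in RFP DMSO (SD, n = 3 each, log2 fold change -0.02, edgeR adjusted p = 0.97).

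Of 40 genes of endothelium and endocardium, 6 rose and 10 fell, or 15% and 25%, not far from the 18.8% and 17.7% of all genes. Their median of 0.06 was -0.18 against RFP rapamycin and -0.068 to -0.0050 without 7 dpci replicate 2 or 3 or RFP DMSO replicate 2 or 3. The 5 defining markers summed to 673 to 799.6 CPM in 7 dpci and 1141 to 1342 CPM in RFP DMSO. Among endothelial genes the higher count was 11 when only the 6 libraries were fitted or with a replicate block, and the lower count 6 without 7 dpci replicate 1 or 7 dpci replicate 2. kdrl (ENSDARG00000105215), a receptor for vascular endothelial growth factor, had 174, 184 and 224 CPM in 7 dpci, against 419, 510.1 and 449.6 CPM in RFP DMSO. All injured libraries lay below all RFP DMSO libraries (log2 fold change -1.24 ± 0.19, edgeR adjusted p = 0.00055). cdh5, the junction cadherin of endothelium, fell by 0.77 on the log2 scale, with 329, 312 and 369.7 CPM in 7 dpci, against 538, 648 and 543 CPM in RFP DMSO (edgeR adjusted p = 0.0033). FLT4, the receptor of lymphatic growth factors, rose by 2.73 ± 0.37 (edgeR adjusted p = 0.00032). NFATC1, a factor of endocardium, averaged 118 ± 11.8 CPM in 7 dpci and 99.03 ± 21.2 CPM in RFP DMSO (SD, n = 3 each, log2 fold change 0.26, edgeR adjusted p = 0.34). Of 22 smooth muscle and pericyte genes, 13 rose and the rest did not pass the test. The smooth muscle count was 7 without RFP DMSO replicate 2 and 8 without RFP DMSO replicate 3. Of its members, acta2, smooth muscle actin, averaged 119 ± 10.2 CPM in 7 dpci and 85.6 ± 16.5 CPM in RFP DMSO and did not pass (SD, n = 3 each, log2 fold change 0.48, edgeR adjusted p = 0.36).

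Genes of blood and of other muscle were counted because a ventricle can carry both. Of 12 erythrocyte genes, 6 rose and 1 fell. hbaa1 (ENSDARG00000097011), an alpha globin, had 332, 509 and 262 CPM in 7 dpci, against 51.5, 64.8 and 97.2 CPM in RFP DMSO, without overlap (log2 fold change 2.37 ± 0.34, edgeR adjusted p = 0.00040). The skeletal muscle creatine kinase ckma averaged 101 ± 20.7 CPM in 7 dpci and 10.8 ± 8.37 CPM in RFP DMSO (SD, n = 3 each, log2 fold change 3.23 ± 0.62, edgeR adjusted p = 0.0020), and of 11 skeletal muscle genes 5 rose, a count that was 3 with RFP rapamycin as the control or without 7 dpci replicate 1, 8 without the expression filter and 9 when only the 6 libraries were fitted or with a replicate block. Of 15 thrombocyte genes, 4 rose and 2 fell, or 26.7% and 13.3%, against 18.8% and 17.7% of all genes (median 0.66). The higher thrombocyte count was 1 without RFP DMSO replicate 2 or RFP DMSO replicate 3 and 8 when only the 6 libraries were fitted. Defining thrombocyte markers itga2b and GP1BB were not called, and summed to 41.9 to 51 CPM in 7 dpci and 26.6 to 40.7 CPM in RFP DMSO. The part of residual blood and of adjoining muscle in other results was not tested.

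Genes of ribosome production were mostly lower. Of 31 ribosome biogenesis genes, 26 fell and the rest did not pass the test (median -1.19), and of 50 ribosomal protein genes 43 fell and the rest did not pass the test (median -0.60), against 18.8% higher and 17.7% lower among all genes. ncl (ENSDARG00000002710), the nucleolar protein nucleolin, had 292, 291 and 271 CPM in 7 dpci, against 610.2, 720.1 and 745 CPM in RFP DMSO. Both groups were narrow and apart (log2 fold change -1.28 ± 0.21, edgeR adjusted p = 0.00088). DDX21 (ENSDARG00000063626), a nucleolar helicase, had 204, 160.2 and 192 CPM in 7 dpci, against 701, 1185 and 1089 CPM in RFP DMSO (log2 fold change -2.42 ± 0.35, edgeR adjusted p = 0.00042). NOB1, which trims the RNA of the small subunit, averaged 27.5 ± 0.917 CPM in 7 dpci and 137 ± 20.7 CPM in RFP DMSO (SD, n = 3 each, log2 fold change -2.31 ± 0.29, edgeR adjusted p = 0.00023). Ribosomal proteins changed by less: RPL4 had 2015, 2067 and 1961 CPM in 7 dpci, against 3034, 3592 and 3478 CPM in RFP DMSO (log2 fold change -0.74 ± 0.15, edgeR adjusted p = 0.0023). The biogenesis list took 0.115% ± 0.00536 of counts in 7 dpci and 0.323% ± 0.0562 in RFP DMSO and the ribosomal protein list 3.21% ± 0.124 of counts in 7 dpci and 4.45% ± 0.418 in RFP DMSO. Under library-total scaling the medians of both lists kept their sign, at -1.07 and -0.48, with 21 biogenesis genes called lower. The count of ribosomal proteins called lower depended on single settings: it was 17 with library-total scaling, 23 without 7 dpci replicate 1, 25 without RFP DMSO replicate 2 and 27 without 7 dpci replicate 3. The lists differed against the uninjured GFP-HRAS DMSO ventricles. There the ribosomal protein median was 0.11, with 0 genes higher and 1 lower in 7 dpci. The biogenesis median was -1.11, with 0 higher and 23 lower.

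**Figure D3:**
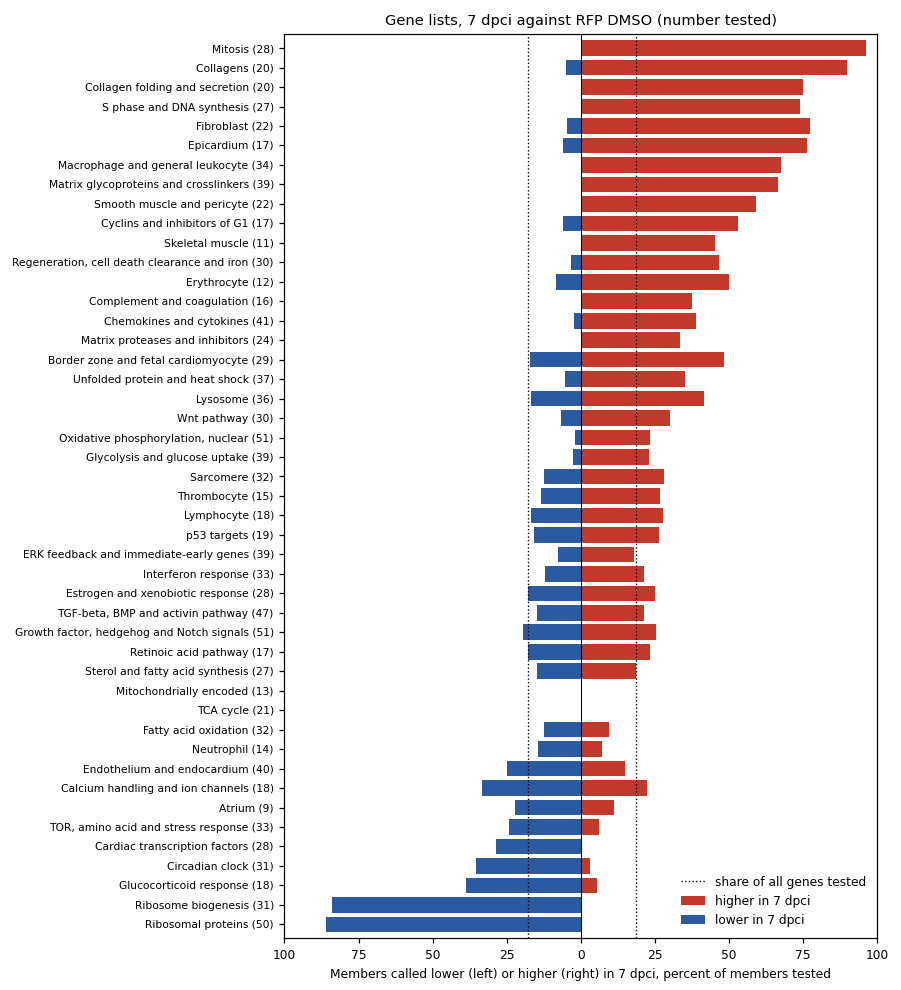
Share of the tested members of every gene list but the liver one, which had 5 tested, called higher (red, to the right) or lower (blue, to the left) in 7 dpci than in RFP DMSO, in percent of members tested, with the number tested in brackets. Dotted lines mark the shares among all genes, 18.8% and 17.7%; mitosis and collagens stand at the top and ribosomal proteins and ribosome biogenesis at the bottom.

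Among clock and glucocorticoid genes, those called were mostly lower. Of 31 clock genes, 1 rose and 11 fell (median -0.90), and of 18 glucocorticoid response genes 1 rose and 7 fell (median -1.16). The lower shares were 35.5% and 38.9%, against 17.7% of all genes, and most members of both lists did not pass the test. The lower clock count was 6 with RFP rapamycin as the control, and the lower glucocorticoid count 4 without 7 dpci replicate 1. KLF9 (ENSDARG00000068194), a zinc-finger factor that glucocorticoids induce, had 1.68, 5.44 and 24.9 CPM in 7 dpci, against 194, 487 and 413 CPM in RFP DMSO. RFP DMSO replicate 1 was the lowest of its group, and all 3 were above the injured libraries (log2 fold change -5.09 ± 1.24, edgeR adjusted p = 0.0069). GLUL ENSDARG00000099776, glutamine synthetase, had 11.2, 20.3 and 29.8 CPM in 7 dpci, against 197, 523 and 371 CPM in RFP DMSO (log2 fold change -4.16 ± 0.999, edgeR adjusted p = 0.0065). hlfa and tefb, clock-controlled PAR bZIP factors, fell by 2.09 and 2.16 on the log2 scale. The clock gene PER1 ENSDARG00000056885 averaged 9.61 ± 3.91 CPM in 7 dpci and 47.6 ± 11.03 CPM in RFP DMSO (SD, n = 3 each, log2 fold change -2.31 ± 0.56, edgeR adjusted p = 0.0066) but was not called against RFP rapamycin (-0.73 ± 0.54, adjusted p = 0.32). Against RFP rapamycin the medians of both lists were nearer to 0, at -0.28 for the clock and -0.42 for the glucocorticoid response. Against GFP-HRAS DMSO they were above 0, at 0.30 and 0.50, and KLF9 was not called (-0.87 ± 1.07, edgeR adjusted p = 0.57). Relative to the RFP DMSO mean, clock medians by library were -0.80, -0.91 and -0.56 in 7 dpci. In the uninjured GFP-HRAS DMSO libraries they were -0.64, -0.95 and -1.04. The time of day at which hearts were taken is not stated in the labels.

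Of 30 Wnt pathway genes, 9 rose and 2 fell, the lower count being 1 with library-total scaling or without 7 dpci replicate 1, 7 dpci replicate 2, 7 dpci replicate 3, RFP DMSO replicate 2 or RFP DMSO replicate 3. notum1b (ENSDARG00000117145), an enzyme that inactivates Wnt ligands, had 10.1, 7.92 and 9.63 CPM in 7 dpci, against 177, 126 and 152 CPM in RFP DMSO. The groups were more than an order of magnitude apart (log2 fold change -4.04 ± 0.26, edgeR adjusted p = 4.4e-06). RSPO3 (ENSDARG00000070081), a secreted enhancer of Wnt signals, went the other way, with 38.9, 36.6 and 29.8 CPM in 7 dpci, against 2.94, 0.673 and 1.103 CPM in RFP DMSO (log2 fold change 4.49 ± 0.42, edgeR adjusted p = 6.0e-05). SFRP1 ENSDARG00000035521, a secreted Wnt antagonist, rose by 3.11 ± 0.42 (edgeR adjusted p = 0.00032). Of 47 genes of the TGF-beta, BMP and activin pathways, 10 rose and 7 fell. There the higher count was 5 without RFP DMSO replicate 2 or RFP DMSO replicate 3 and 6 without 7 dpci replicate 2, and the lower count 2 without 7 dpci replicate 2 or RFP DMSO replicate 2, 3 without 7 dpci replicate 1, 7 dpci replicate 3 or RFP DMSO replicate 3 and 4 with library-total scaling. BMP6, a ligand of the TGF-beta family, rose by 1.67 ± 0.38 (edgeR adjusted p = 0.0045). Of 51 genes of other growth factor, hedgehog and Notch signals, 13 rose (7 without RFP DMSO replicate 3) and 10 fell. In the insulin-like growth factor system, IGF1R ENSDARG00000034434, the receptor, had 5.47, 4.31 and 6.46 CPM in 7 dpci, against 27.03, 45.98 and 39.6 CPM in RFP DMSO (log2 fold change -2.79 ± 0.26, edgeR adjusted p = 6.0e-05), and igfbp6b, a binding protein, rose by 3.24 ± 0.50 (edgeR adjusted p = 0.00060). Of 17 retinoic acid genes, 4 rose and 3 fell (1 without 7 dpci replicate 1, 7 dpci replicate 2 or RFP DMSO replicate 1). These shares of the TGF-beta, growth factor and retinoic acid lists, 21.3% to 25.5% higher and 14.9% to 19.6% lower, lay near the 18.8% and 17.7% of all genes. CRABP2 ENSDARG00000030449, a carrier of retinoic acid, rose by 3.65 ± 0.60 (edgeR adjusted p = 0.00082). The immediate-early factor FOS averaged 356 ± 474 CPM in 7 dpci and 64.4 ± 62.5 CPM in RFP DMSO with a wide spread and did not pass (SD, n = 3 each, log2 fold change 2.47, edgeR adjusted p = 0.14).

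Of 33 TOR and stress genes, 2 rose and 8 fell, or 6.06% and 24.2%, against 18.8% and 17.7% of all genes. In the TOR list the higher count was 4 with library-total scaling and 6 when only the 6 libraries were fitted, and the lower count 4 without 7 dpci replicate 2 or RFP DMSO replicate 2 and 5 without 7 dpci replicate 1. EIF4EBP3, a repressor of cap-dependent translation, had 66.7, 65.4 and 85.8 CPM in 7 dpci, against 369, 635 and 566 CPM in RFP DMSO (log2 fold change -2.85 ± 0.61, edgeR adjusted p = 0.0034). In the list of regeneration, clearance and iron genes, 14 of 30 rose and 1 fell. CLU (ENSDARG00000010434), clusterin, an extracellular chaperone, had 682, 516 and 681 CPM in 7 dpci, against 16.1, 8.99 and 12.9 CPM in RFP DMSO, without overlap (log2 fold change 5.63 ± 0.71, edgeR adjusted p = 0.00024). GPNMB, a glycoprotein of phagocytes that clear debris, averaged 5.24 ± 0.716 CPM in 7 dpci and 0.102 ± 0.0982 CPM in RFP DMSO (SD, n = 3 each, log2 fold change 5.61 ± 0.75, edgeR adjusted p = 0.00031). Of 36 lysosomal genes, 15 rose and 6 fell (lower count 3 without 7 dpci replicate 1, 7 dpci replicate 2, RFP DMSO replicate 2 or RFP DMSO replicate 3), the protease CTSZ by 1.81 ± 0.19 (edgeR adjusted p = 0.00011). Of 37 unfolded protein and heat shock genes, 13 rose and 2 fell. The higher count was 8 with RFP rapamycin as the control or without 7 dpci replicate 2, RFP DMSO replicate 2 or RFP DMSO replicate 3, and the lower count 1 when only the 6 libraries were fitted or with the CPM filter or with a replicate block or without 7 dpci replicate 1, 7 dpci replicate 2, 7 dpci replicate 3, RFP DMSO replicate 2 or RFP DMSO replicate 3 and 4 with RFP rapamycin as the control. The chaperone hsp90aa1.1 rose by 3.41 ± 0.47 (edgeR adjusted p = 0.00036) and HSP90AB1 fell by 0.74 on the log2 scale (edgeR adjusted p = 0.0039). ldlra, the receptor that takes up low-density lipoprotein, had 0.671, 1.401 and 2.52 CPM in 7 dpci, against 24.7, 53.7 and 28.4 CPM in RFP DMSO (log2 fold change -4.54 ± 0.81, edgeR adjusted p = 0.0012). Estrogen and xenobiotic response genes were counted too: of 28, 7 rose and 5 fell, or 25% and 17.9%, near the 18.8% and 17.7% of all genes. In 4 of the 28 every 7 dpci library was above all 12 libraries of the other table, a larger share than the 5.23% of all genes. An effect of 4-OHT on these genes was not tested. For this list the higher count was 2 without RFP DMSO replicate 2, 3 without 7 dpci replicate 2 and 4 without 7 dpci replicate 1 or RFP DMSO replicate 3, and the lower count 2 without RFP DMSO replicate 2 and 3 with library-total scaling or without 7 dpci replicate 1, 7 dpci replicate 2, 7 dpci replicate 3 or RFP DMSO replicate 3. ESR2 ENSDARG00000034181, an estrogen receptor, averaged 7.81 ± 0.635 CPM in 7 dpci and 25.4 ± 10.01 CPM in RFP DMSO (SD, n = 3 each, log2 fold change -1.702 ± 0.37, edgeR adjusted p = 0.0039).

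The same injured libraries were also set against the other groups, with which they share the confounding of table, UAS transgene and 4-OHT. Against RFP rapamycin, 5665 of 16421 genes were called (34.5%), 2818 higher and 2847 lower. Of the genes called against RFP DMSO, 2284 were also called higher and 2292 also called lower against RFP rapamycin; the comparisons share the injured libraries. Against GFP-HRAS DMSO 4733 genes were called (28.8%), 2192 (13.3%) higher and 2541 (15.5%) lower. There, 20 of 28 mitosis genes were lower in 7 dpci and 0 higher (median -1.41), as were 23 of 33 interferon genes (median -1.79) and 12 of 18 lymphocyte genes (median -2.59). Higher in 7 dpci than in GFP-HRAS DMSO were 37 of 51 genes of oxidative phosphorylation (median 0.96) and 15 of 21 TCA cycle genes (median 1.05). For mki67 the log2 fold change of 7 dpci over GFP-HRAS DMSO was -0.95 ± 0.37, adjusted p = 0.068, and for COL1A1 it was 1.36 ± 0.44, adjusted p = 0.035.

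**Figure D4:**
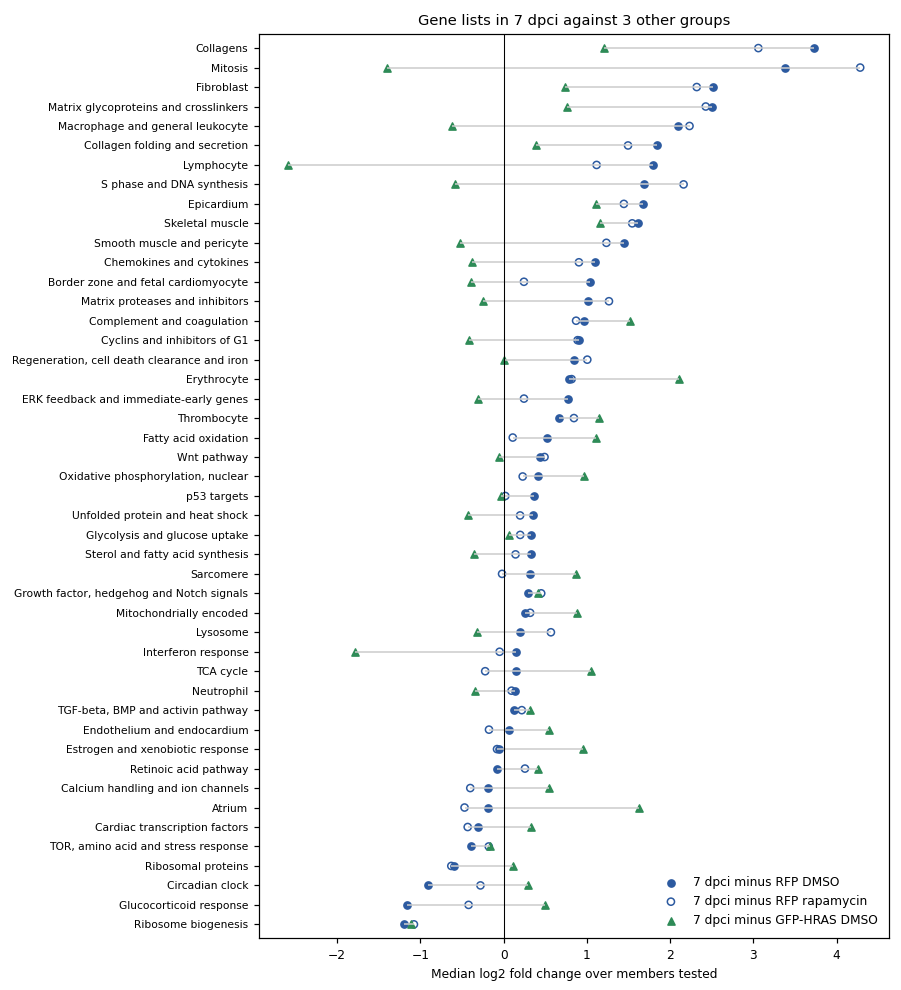
Median log2 fold change of every gene list but the liver one in 7 dpci minus RFP DMSO (filled circles), minus RFP rapamycin (open circles) and minus GFP-HRAS DMSO (triangles). Mitosis lies right of 0 against both RFP groups and left of 0 against GFP-HRAS DMSO, and ribosome biogenesis lies left of 0 against all 3.

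Some genes set the injured ventricles apart from all 12 libraries of the other table. In 859 genes (5.23%) every 7 dpci library was above all 12, and in 915 (5.57%) every one was below. Of the 20 collagen genes 13 were above all 12, as were 13 of 39 matrix glycoproteins, and of the 31 ribosome biogenesis genes 18 were below all 12. Of the 50 ribosomal protein genes 1 was below all 12. POSTN ENSDARG00000104267 averaged 880.2 ± 179.9 CPM in 7 dpci, against 193 ± 184 CPM in GFP-HRAS DMSO, 38.9 ± 34.03 CPM in GFP-HRAS rapamycin, 9.601 ± 1.27 CPM in RFP rapamycin and 17.1 ± 20.1 CPM in RFP DMSO (SD, n = 3 each). notum1b averaged 9.21 ± 1.13 CPM in 7 dpci, against 247 ± 39.096 CPM in GFP-HRAS DMSO, 119 ± 13.9 CPM in GFP-HRAS rapamycin, 86.5 ± 30.03 CPM in RFP rapamycin and 152 ± 25.6 CPM in RFP DMSO. In none of the mitosis and DNA synthesis genes were all injured libraries above all 12. Since these 12 libraries form the other table, table and injury cannot be told apart here either.

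**Figure D5:**
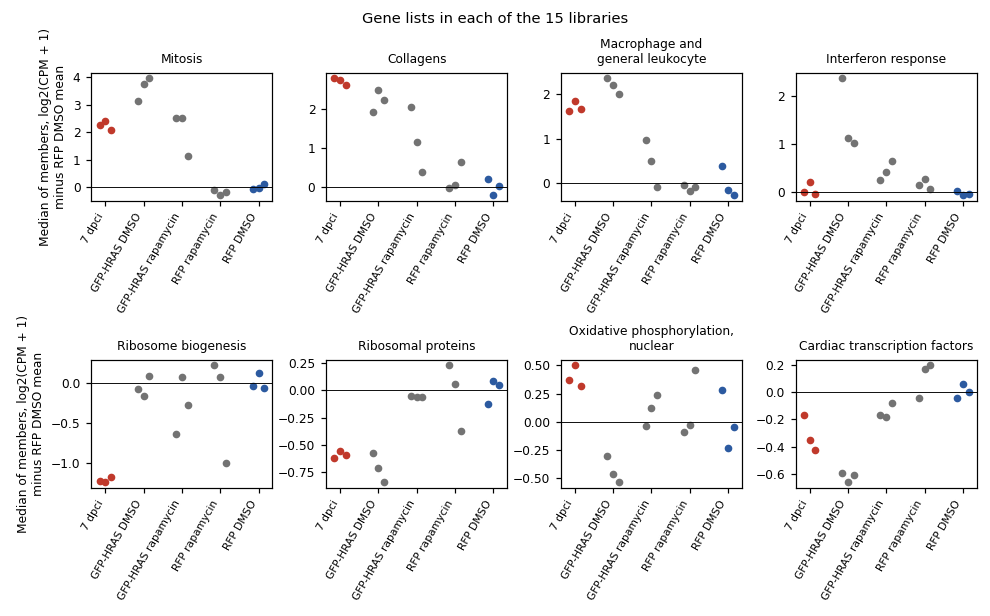
Median over the members of 8 gene lists of log2(CPM + 1) in each library minus the mean of the RFP DMSO libraries; red is 7 dpci, grey the 3 other groups and blue RFP DMSO. The 7 dpci libraries lie at -1.23, -1.24 and -1.18 for ribosome biogenesis, below every other library, and at 2.25, 2.40 and 2.06 for mitosis, between RFP DMSO and GFP-HRAS DMSO.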

How the data were processed

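Per the labels' protocols, RNA was isolated in QIAzol, cleaned on columns with DNase and made into libraries with the CORALL mRNA kit. The submitters' processing notes name build GRCz11, the aligner HISAT2 (2.1.0), featureCounts (1.6.0) and, for molecular identifiers, UMI-tools (1.1.1). Neither the annotation nor any strand setting is given in the sources used here, so overlapping genes and near-identical paralogues may share reads. The authors deposited whole-number counts per gene in 2 tables, without normalization, which were joined on 32520 gene identifiers. Of these, 29201 had a symbol in the name table. Columns headed UR were matched to UAS:RFP fish, an abbreviation that the labels do not spell out.

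The counts were fitted in R 4.3.3 with edgeR 4.0.16 (TMM factors, filterByExpr by group, glmQLFit and glmQLFTest) over all 15 libraries, with 1 coefficient per group and no covariate, so that 5 groups share the estimate of spread. P-values were adjusted by Benjamini-Hochberg over all 16421 genes, and the standard error is the absolute log2 fold change over the square root of F. The fit was run on simulated counts in which few genes changed, as many up as down. Many more genes differed in the real comparison, so the simulation could not test the scaling. Where a group had 0 counts, a fold is given as the least value that a floor of 3 counts over the group allows, and with 1 to 3 counts the ratio has a 95% exact interval; both cover counting error only. The alternatives were library totals, RLE factors, DESeq2 1.42.0, other filters, the 6 libraries alone, a replicate block, RFP rapamycin as control, and leaving out each library.

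The members and the 47 gene lists were chosen with earlier results of these data known. Some genes belong to several lists, so counts of different lists are not independent. The lists hold 1436 symbols: 518 were found as written, 522 in another case, 296 by their family symbol and 17 by an alias, while 82 were not matched. Named genes were the 12 largest changes in each direction with at least 5 CPM in the higher group and no overlap; in each list, up to 4 called members with at least 2 CPM and the 2 with most counts; and fixed markers. Replicate pairs differed by more than sampling noise (chi-square over degrees of freedom of 17.7 to 95.4). Some genes are not reported here.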

Additional observations from a re-analysis of the deposited data

How the results depend on the processing

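The count of 5984 called genes stayed within 1.5 times under every alternative: 7092 with the 6 libraries alone, 5780 with at least 1 CPM in 3 libraries, 6722 with DESeq2, 5986 with RLE factors, 5644 with library totals, 5406 without a filter, 5665 with RFP rapamycin as control, and 3995 (without RFP DMSO replicate 2) to 5843 (without RFP DMSO replicate 1) when 1 library was left out. No gene was called in the opposite direction, and 65.1% to 99.7% of the calls were shared. The replicate numbers do not pair the samples: same-numbered libraries had correlations of -0.04, -0.05 and -0.03 between their deviations, and the fit with the replicate block called 6044 of 15024 genes. Of 289 named genes tested, 224 were called, 156 of them under every setting. Many genes were named because they were called, so this share cannot be read against the 36.4% of all genes called.

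Medians of 37 lists kept their sign under every setting, and 10 changed it under at least 1. With RFP rapamycin as control the medians were -0.0188 for the sarcomere, -0.222 for the TCA cycle and -0.0483 for the interferon response. With the same control 2 named genes changed sign, to log2 fold changes of 2.45 for CYP26B1 and -0.0608 for sult1st1. With 1 library left out, the TCA cycle median ran between -0.0193 (without 7 dpci replicate 3) and 0.150, and the atrium median between -0.407 and 0.108 (without RFP DMSO replicate 2). The liver median, over 5 genes, was -0.31, but 0.41 with the 6 libraries alone, 0.38 with the CPM filter, 0.59 with the block and 0.22 to 0.61 with 1 library left out; these fits test other members. The estrogen and xenobiotic median was 0.0675 with library totals, 0.0053 with the block, and ran between -0.157 and 0.240 with 1 library left out, above 0 without RFP DMSO replicate 1 or 2. The sterol median was 0.32 over 27 genes, but -0.12 with the 6 libraries alone (23 genes), -0.15 with the CPM filter (25) and -0.12 with the block (23). The causes of these changes of sign were not tested.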

Other observations

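Gene families grouped by symbol after their values were seen gave further descriptions of the same comparison, in which 18.8% of all genes were higher and 17.7% lower. Of 60 genes of translation initiation, 34 were lower and 2 higher in 7 dpci than in RFP DMSO, with a median log2 fold change of -0.71, and 13 had every injured library below all 12 of the other table. EIF3D, a subunit of the initiation complex, averaged 288 ± 18.2 CPM in 7 dpci and 914 ± 178 CPM in RFP DMSO (SD, n = 3 each, log2 fold change -1.67 ± 0.24, adjusted p = 0.00041 in edgeR). utp3, a factor of the small ribosomal subunit, averaged 14.9 ± 2.31 CPM in 7 dpci and 85.9 ± 20.3 CPM in RFP DMSO (SD, n = 3 each, log2 fold change -2.53 ± 0.33, adjusted p = 0.00028 in edgeR). In the other direction, 6 of 11 annexins rose, ANXA1 with 396 ± 29.2 CPM in 7 dpci and 110.4 ± 16.95 CPM in RFP DMSO (SD, n = 3 each, log2 fold change 1.84 ± 0.20, adjusted p = 0.00011 in edgeR), and so did 5 of 6 S100 genes. Of 15 ADAMTS proteases, which cut matrix proteoglycans and procollagen, 6 rose. ADAMTS10 averaged 11.5 ± 0.74 CPM in 7 dpci and 0.983 ± 0.008201 CPM in RFP DMSO (SD, n = 3 each, log2 fold change 3.54 ± 0.39, adjusted p = 0.00015 in edgeR). Other families gave counts below those shares: of 21 tetraspanins 2 rose and 3 fell, of 30 potassium channels 5 rose and 5 fell, and of 70 mitochondrial ribosomal proteins 9 rose and 6 fell.

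Some single genes stood apart from all 4 other groups. In 309 genes above and 335 below all 12 libraries, the difference was also called against each of the 4 groups. GSTM3 ENSDARG00000088116, a glutathione transferase, averaged 159.7 ± 19.04 CPM in 7 dpci and 9.85 ± 2.82 CPM in RFP DMSO (SD, n = 3 each, log2 fold change 4.02 ± 0.32, adjusted p = 2.2e-05 in edgeR). BHMT, which remethylates homocysteine, averaged 29.7 ± 7.96 CPM in 7 dpci and 2.41 ± 0.817 CPM in RFP DMSO (SD, n = 3 each, log2 fold change 3.62 ± 0.34, adjusted p = 6.0e-05 in edgeR). TBX1, a T-box factor of the anterior heart field, averaged 8.61 ± 2.798 CPM in 7 dpci and 0.734 ± 0.178 CPM in RFP DMSO (SD, n = 3 each, log2 fold change 3.54 ± 0.84, adjusted p = 0.0061 in edgeR). Lower than in all others were pprc1, a coactivator of mitochondrial biogenesis, with 6.43 ± 1.44 CPM in 7 dpci and 47.3 ± 14.4 CPM in RFP DMSO (SD, n = 3 each, log2 fold change -2.88 ± 0.58, adjusted p = 0.0025 in edgeR), and DUSP6, a phosphatase that ERK signalling induces, with 2.02 ± 1.16 CPM in 7 dpci and 10.5 ± 2.83 CPM in RFP DMSO (SD, n = 3 each, log2 fold change -2.38 ± 0.75, adjusted p = 0.024 in edgeR). These genes were picked after their values were seen, and the table they come from differs as well. Of the 39 ERK feedback and immediate-early genes tested, DUSP6 among them, 7 rose and 3 fell against RFP DMSO (median 0.77). Those shares were 17.9% and 7.69%, against 18.8% and 17.7% of all genes. The higher count was 1 without 7 dpci replicate 3 or RFP DMSO replicate 3.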
